A study of Mus musculus with 6 samples.

Results

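The genes described are the nuclear-encoded subunits of the mitochondrial respiratory chain and ATP synthase. They were chosen by symbol: gene names beginning with *Nduf*, *Uqcr*, *Cox4* to *Cox8*, *Atp5* or *Sdh* in the form used for structural subunits, and *Cycs*. The rule found 83 of the 23420 genes in the count tables. Of these, 35 belong to complex I, 4 to complex II, 8 to complex III, 19 to complex IV, 16 to complex V (ATP synthase) and 1 is cytochrome c. A few subunits with other symbols, among them *Cyc1* and *Ndufab1*, fall outside the rule and are given as a list of their own. Mitochondrially encoded subunits were not analysed here.

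The chain moves electrons from NADH (complex I) or succinate (complex II) through ubiquinone, complex III and cytochrome c to oxygen at complex IV. Complexes I, III and IV pump protons across the inner membrane, and complex V uses the return flow to make ATP. Most subunits are made in the cytosol from nuclear mRNAs and joined in the membrane with a few mitochondrially made ones. At implantation the uterine epithelium remodels around the embryo while the blastocyst becomes competent to attach, and both draw on oxidative phosphorylation and glycolysis for ATP.

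RNA was sequenced from the luminal layer of the mouse uterus, cut out by laser microdissection, and from flushed blastocysts, all taken at 8 pm on day 4 of pregnancy. Control females were *Lif-floxed/floxed* and received PBS. *Lif* eKO females were *Lif-floxed/floxed Ltf-Cre/+*, with a Cre driven in the uterine epithelium, and received PBS or recombinant Lif (rLif). The rLif dose was 20 µg/head, injected at 10 am and again at 6 pm, and tissue was taken 2 h after the second. These last animals are called treated eKO below. Blastocysts of all 3 groups are labelled *Lif-floxed/+*, so the groups differed in the mother's genotype and treatment. Each of the 6 groups was 1 library of pooled RNA or pooled blastocysts. No difference has a replicate check, and no p-value can be given.

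Total counts were 18996158 to 28460465 per library. Intervals below are exact 95% intervals of the ratio of 2 counts and cover counting error only, not the spread between animals. Reads copied by PCR are not independent molecules, so the intervals may be too narrow even for that error. A gene was called when its whole interval lay beyond 2-fold, a log2 ratio of 1 up or down, and log2 0.5 was the second limit. The targeted gene gave no check of the luminal labels. *Lif* was at 0 counts under the control label, 28 under the eKO label (0.975 CPM) and 0 under the treated eKO label. Before attachment *Lif* is known to be made mainly by the glands, so a count of 0 in dissected luminal layer says nothing of the genotype, while the counts that were found lay under the eKO label. Luminal groups are therefore named by their labels. Values of 3 libraries are always given as control, eKO, treated eKO. In blastocysts *Lif* had 1447, 1736 and 1250 counts. All 7 epithelial markers were detected in the luminal layer, at a summed 4581, 6131 and 4695 CPM (counts scaled to library size). In eKO against control 2 of the 7 were called higher (8.08% of all genes) and 2 lower (9.15% of all genes). The numbers were the same in treated eKO against eKO (7.88% and 7.77% of all genes), and 0 were called in treated eKO against control. In blastocysts the 7 markers summed to 7792 to 8286 CPM, so they do not set the luminal layer apart. Of 4 inner cell mass markers, *Pou5f1*, *Nanog* and *Fgf4* were at 0 in the luminal layer, and *Sox2* was at 0.317, 0.662 and 0 CPM. The 4 primitive endoderm markers summed to 1145 to 2594 CPM there, with *Gata4* at 0, and to 413 to 490 in blastocysts. In the luminal layer the 4 glandular markers, all detected, summed to 10.4, 11.5 and 22.8 CPM. Gene by gene, 3 of these 4 were lower in eKO than in control and 1 was higher (median log2 -1.30, 1 called lower). All 4 were higher in treated eKO than in control (median log2 1.32, 1 called higher). The 8 stromal markers, all detected, summed to 709, 1108 and 735 CPM, the 6 smooth muscle markers to 70.4, 50.5 and 31.4, and the 5 immune markers to 870, 722 and 748. In blastocysts 6 trophectoderm markers summed to 2837 to 3159 CPM.

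Promoters of respiratory genes are known for binding sites of the nuclear respiratory factor NRF1, of ETS proteins such as GABP, and of YY1. RefSeq promoter windows (250 bases before the start to 50 after) matched 67 of the 83 genes by symbol. The NRF1 core gcatgcgc, searched on both strands, was in 11 of 67 windows (16.4%), against 2.80% of all 27025 promoters. The ETS core ccggaagt was in 5 (7.46% against 4.00%) and the YY1 core aagatggcg in 6 (8.96% against 1.49%). These are matches of letters, not measured binding. The sequences below show the matches, in capitals, in 3 genes that were called in the luminal layer and in *Cycs*, a classical NRF1 target. For *Ndufa11*, *Uqcr11* and *Cycs* they are the 250 bases before the start. For *Uqcrc1* they are 30 bases around a match that starts at base 31 of the transcript. In *Ndufa11* and *Uqcrc1* the NRF1 core is matched on both strands at overlapping positions. The capitals in *Uqcr11* mark the ETS core, since its NRF1 match does not lie wholly within the bases shown.
Ndufa11 (GRCm38.p6, chr17:56717512-56717761, plus strand): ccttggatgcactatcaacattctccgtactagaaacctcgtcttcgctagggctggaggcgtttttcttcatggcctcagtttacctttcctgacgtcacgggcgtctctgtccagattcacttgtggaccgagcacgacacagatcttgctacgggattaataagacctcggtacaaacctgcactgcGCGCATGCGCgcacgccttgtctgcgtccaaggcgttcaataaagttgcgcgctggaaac
Uqcr11 (GRCm38.p6, chr10:80406822-80407071, minus strand): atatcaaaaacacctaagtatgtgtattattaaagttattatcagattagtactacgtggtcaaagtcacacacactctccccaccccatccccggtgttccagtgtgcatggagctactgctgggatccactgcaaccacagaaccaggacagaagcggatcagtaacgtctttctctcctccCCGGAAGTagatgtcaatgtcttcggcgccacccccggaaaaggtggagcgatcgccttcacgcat
Cycs (GRCm38.p6, chr6:50566570-50566819, minus strand): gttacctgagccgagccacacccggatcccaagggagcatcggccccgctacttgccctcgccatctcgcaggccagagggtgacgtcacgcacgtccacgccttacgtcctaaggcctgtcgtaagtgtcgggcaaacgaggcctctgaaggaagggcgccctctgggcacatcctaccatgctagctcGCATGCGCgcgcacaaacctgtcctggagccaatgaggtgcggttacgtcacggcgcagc
Uqcrc1 (GRCm38.p6, chr9:108936668-108936697, plus strand): actccgctctGCGCATGCGCagcgcggctc
Of the 14 members called in any luminal comparison, the promoter windows of 12 were searched, and the NRF1 core was in 3 of them, *Ndufa11*, *Uqcr11* and *Uqcrc1*.

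In the luminal layer, the library labelled eKO had more counts for most small subunits than the library labelled control. Of 81 members with at least 10 counts, 62 had a log2 ratio above 0 and 19 below, with a median of 0.46, while the median of all 15694 genes was 0.01. Beyond 2-fold, 9 members were higher, where 8.08% of all genes were, and 1 was lower, where 9.15% were. Beyond log2 0.5, 36 were higher (17.9% of all genes) and 4 were lower (18% of all genes). The members' share of all counts was 1.98% in the library labelled control, 2.70% in that labelled eKO and 2.78% in that labelled treated eKO. In tissue pools, a change in the number of cells of one type and a change in RNA per cell cannot be told apart.

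**Figure D1:**
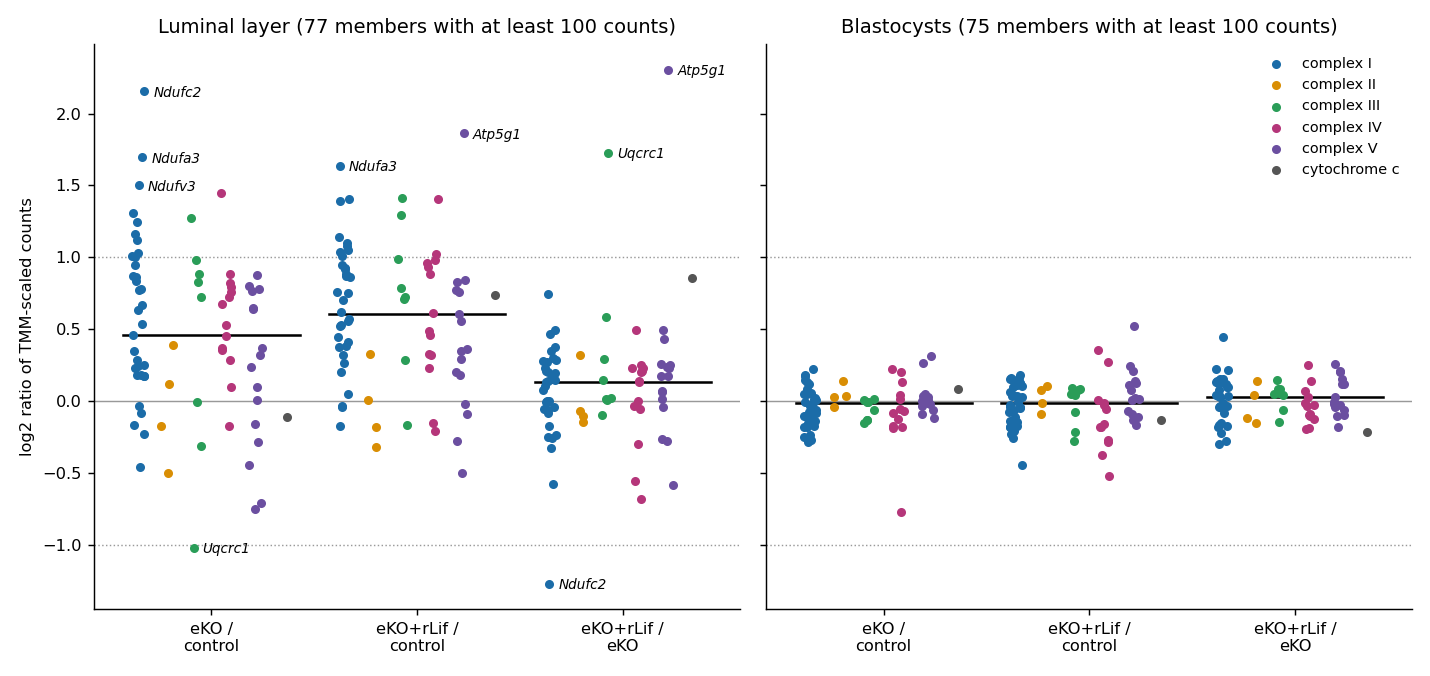
Log2 ratio of TMM-scaled counts for each member with at least 100 counts, in the luminal layer (left) and blastocysts (right), for the 3 comparisons on the x axis. Each point is 1 gene coloured by complex, the black line is the median of the plotted points, and the dotted lines are 2-fold. Luminal ratios spread from -1.27 (*Ndufc2*, eKO with rLif, here treated eKO, against eKO) to 2.31 (*Atp5g1*, the same comparison), while no blastocyst point reaches 2-fold.

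Complex I held 7 of the 10 called genes and 34 of the 81 analysed. *Ndufc2*, an accessory subunit of the membrane arm, had 11266, 57075 and 21414 luminal counts. The library labelled eKO stood above both others, at a log2 ratio of 2.15 (2.13 to 2.18) over control, or 4.45-fold. *Ndufa3*, a small membrane-arm subunit, had 1820, 6714 and 5832 counts, 3.24-fold higher in the library labelled eKO (log2 1.70, 1.62 to 1.77). *Ndufv3*, an accessory subunit at the NADH-oxidising tip, had 1780, 5728 and 3473 counts, 2.83-fold higher (log2 1.5, 1.42 to 1.58). *Ndufa11* had 3644, 10252 and 9964 counts (log2 1.31). *Ndufb3* had 3715, 10014 and 7695 counts (log2 1.24), and *Ndufb2* had 1799, 4568 and 4859 (log2 1.16). *Ndufa2* had 7600, 18809 and 16518 counts (log2 1.12), with exons that overlap *Tmco6*, so that its count is uncertain. In all 7 the library labelled control was the lowest of the 3. *Ndufb7*, with 4586, 10446 and 10447 counts, sat at 2.00-fold with an interval across the limit (log2 0.95 to 1.05).

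The 7 catalytic core subunits of complex I, which carry the flavin and iron-sulphur clusters, had lower ratios than the 27 accessory ones analysed. None of the 7 was called, their median log2 ratio was 0.23, and that of the accessory subunits was 0.78. *Ndufs8* had 3236, 6726 and 6080 counts (log2 0.87) and *Ndufv2* had 2947, 4866 and 4389 (log2 0.54). *Ndufs7* had 3158, 4250 and 4673 counts (log2 0.24) and *Ndufs1*, the largest iron-sulphur subunit, had 895, 1192 and 956 (log2 0.23). *Ndufs3* had 2153, 2085 and 2661 counts (log2 -0.23). *Ndufv1*, which holds the NADH site, was the lowest of complex I at 2109, 1746 and 1929 counts (log2 -0.46, -0.55 to -0.37). Core and accessory genes also differ in length: the median summed exon length was 1472 bases for the core genes and 567 for the accessory genes. Among accessory genes over 1100 bases the median log2 ratio was 0.54 (6 genes), and among core genes over 1100 bases it was 0.03 (4 genes).

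Complex II, the succinate dehydrogenase that also serves the citric acid cycle, had no called subunit. *Sdhb* had 3528, 5263 and 4552 counts (log2 0.39 in the library labelled eKO over control) and *Sdha*, the flavoprotein, had 3516, 4333 and 3649 (log2 0.12). *Sdhc* had 2788, 2816 and 2301 counts (log2 -0.17), and *Sdhd*, the other membrane anchor, had 25609, 20613 and 23278 (log2 -0.50, -0.53 to -0.47). The *Sdhd* count was thus lower in both eKO libraries than in that labelled control.

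Complex III divided by subunit size. *Uqcr11*, its smallest subunit, had 6829, 18807 and 17301 counts, 2.42-fold higher in the library labelled eKO (log2 1.28, 1.24 to 1.32). The other 4 small subunits, *Uqcr10*, *Uqcrb*, *Uqcrh* and *Uqcrq*, had log2 ratios of 0.72 to 0.98. *Uqcrc1*, a large core subunit on the matrix side, went the other way at 4626, 2592 and 7790 counts (log2 -1.02, -1.09 to -0.95). It was the lowest ratio among members with at least 100 counts, and its interval crossed the 2-fold limit. *Uqcrfs1*, the Rieske iron-sulphur protein, had 11339, 12818 and 14250 counts (log2 -0.01), and *Uqcrc2* had 2855, 2612 and 2625 (log2 -0.31).

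In complex IV, cytochrome c oxidase, *Cox7c* had 2463, 7626 and 6742 counts, 2.72-fold higher in the library labelled eKO (log2 1.44, 1.38 to 1.51). The lowest general subunit was *Cox5a* at 4749, 4778 and 6098 counts (log2 -0.18). *Cox8b*, a muscle-type isoform, was the only member called lower, on 13, 0 and 11 counts. In complex V, 0 subunits were called in this comparison. The catalytic head genes *Atp5a1* (13584, 9193 and 9894 counts, log2 -0.75) and *Atp5b* (27007, 18755 and 22954, log2 -0.71) were both lower in the library labelled eKO beyond log2 0.5. *Atp5k* had the highest ratio of complex V, 0.88, on 23, 48 and 29 counts.

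Ratios in this comparison also differed by exon length among genes that are no members. Among 235 other genes with summed exons of at most 500 bases the median log2 ratio was 0.55, and among 457 of over 500 and up to 750 bases it was 0.57. It was -0.19 among 3620 genes of over 2000 and up to 3000 bases, but 0.17 among 2621 genes over 5000 bases. The fall thus covered the short classes, where most members lie, and the Spearman correlation over 12726 other genes was 0.000889. Members are short: their median summed exon length was 659 bases, against 2247 for all genes, and 48 of 83 had at most 750. Over the 75 members that are not tissue-restricted isoforms the Spearman correlation of ratio and length was -0.60, across genes that share 2 libraries. Members of at most 500 bases had a median of 0.93 (16 genes) and those of over 500 and up to 750 bases 0.70 (30 genes). Centring on the median of 3 classes of exon length left a median of 0.41 and 9 called members, 7 higher and 2 lower. With 8 narrower classes, a choice made after seeing these data, the median was 0.15. Then 48 members were above and 33 below their class. *Ndufc2*, *Ndufa3*, *Ndufa11* and *Ndufv3* were still called higher, while *Ndufb3*, *Ndufb2*, *Ndufa2*, *Uqcr11* and *Cox7c* were not. The summed stromal markers were also higher under the eKO label (1108 against 709 CPM) and the smooth muscle markers lower (50.5 against 70.4), and their part in the result was not tested.

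**Figure D2:**
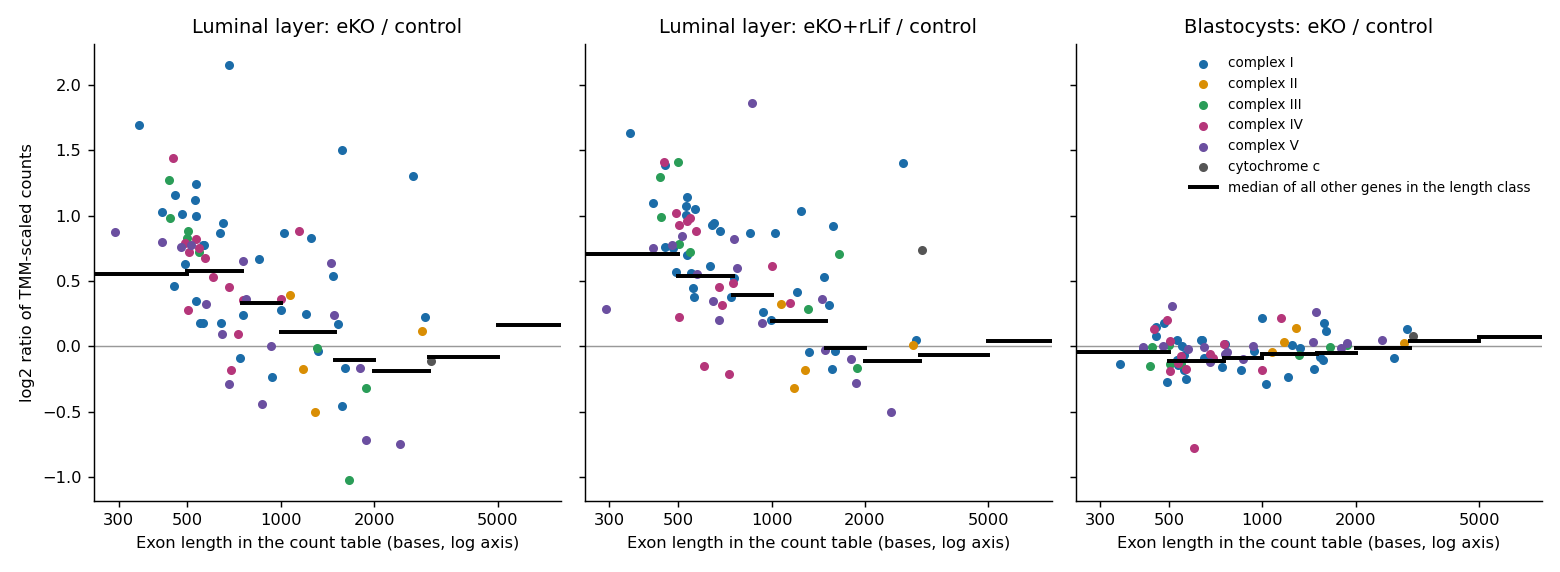
Log2 ratio of each member with at least 100 counts against its summed exon length in bases (log axis), with points coloured by complex and black bars for the median of all other genes in 8 length classes. In the luminal layer the bars of the shortest class stand at 0.55 for eKO against control and 0.70 for eKO with rLif (treated eKO) against control, and those over 1500 bases between -0.19 and 0.17. In blastocysts, eKO against control, the bars stay between -0.11 and 0.07.

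The library labelled treated eKO, set against the same control library, also had more counts for many small subunits. Of 81 members 66 had a log2 ratio above 0, with a median of 0.57 (all genes 0.01). Beyond 2-fold, 9 were higher (4.12% of all genes) and 0 lower (5.04% of all genes). Beyond log2 0.5, 40 were higher (11.8% of all genes) and 0 lower (11.7% of all genes). The 9 were *Ndufa11*, *Ndufa2*, *Ndufa3*, *Ndufb2*, *Ndufb7*, *Uqcr11*, *Uqcrq*, *Cox7c* and *Atp5g1*. *Uqcrq*, which sits beside cytochrome b, had 9231, 18650 and 25371 counts and was 2.67-fold higher (log2 1.41). *Ndufa3* was 3.11-fold higher (log2 1.64), and *Cox7c* was 2.65-fold higher (log2 1.41). The lowest ratios by complex were -0.17 for *Ndufv1*, -0.32 for *Sdhc*, -0.17 for *Uqcrc2*, -0.21 for *Cox4i2* and -0.50 for *Atp5a1*. *Sdhb* was the highest of complex II at 0.32. Centring in 3 length classes left a median of 0.40 and 7 members called. In the 8 narrower classes 52 members were above and 29 below, with a median of 0.13, and *Ndufa11* and *Atp5g1* stayed beyond 2-fold. Smooth muscle markers were lower under the treated eKO label (31.4 against 70.4 CPM, 4 of 6 called lower), and their part in the result was not tested. Both comparisons use the library labelled control, so their ratios are not independent.

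Treated eKO against eKO, both by their luminal labels, showed most members close together. The median log2 ratio was 0.13 (all genes -0.01), with 51 above 0 and 30 below. Beyond 2-fold, 3 were higher (7.88% of all genes) and 1 lower (7.77% of all genes). Beyond log2 0.5, 6 were higher (15.3% of all genes) and 4 lower (15.8% of all genes). *Atp5g1*, 1 of 3 genes for the proton-carrying subunit c of ATP synthase, had 16520, 13816 and 61931 counts. The library labelled treated eKO stood 4.94-fold above that labelled eKO (log2 2.31, 2.28 to 2.33) and 3.64-fold above that labelled control (log2 1.86, 1.84 to 1.89). *Uqcrc1* was 3.32-fold higher (log2 1.73, 1.66 to 1.79), with the library labelled control between the other two. *Ndufc2* was the member called lower (log2 -1.27, -1.30 to -1.25), with the control library below both. *Cox8b* was called higher on 0 against 11 counts, too few for a fold. Markers moved in this comparison too. Of 4 glandular markers 3 were called higher (median log2 2.62, 11.5 against 22.8 CPM), and the 6 smooth muscle markers had a median of -1.16 with 1 called lower (50.5 against 31.4 CPM). Their part in the result was not tested.

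Smaller differences between these libraries concerned *Cycs*, *Ndufb8* and *Uqcrq*. *Cycs*, the mobile electron carrier, had 5595, 5885 and 9635 counts (log2 0.85, 0.81 to 0.90). *Ndufb8* had 9283, 11974 and 18201 counts (log2 0.75), and *Uqcrq* had a log2 ratio of 0.59. On the lower side beyond log2 0.5 were *Ndufc2*, *Ndufv3* (log2 -0.58), *Cox7a2l* (18133, 38069 and 23501 counts, log2 -0.55), a supercomplex assembly factor, and *Cox6a2*, on 15, 31 and 8 counts. The other extremes by complex were *Sdhd* (0.32) and *Sdhc* (-0.15), *Uqcrb* (-0.10), the general subunit *Cox5a* (0.49), *Cox6b2* (-0.68 on 28, 46 and 26 counts) and *Atp5k* (-0.59). The 8 length classes of other genes had medians of -0.14 to 0.10 here, and centring on them left *Atp5g1*, *Uqcrc1* and *Ndufc2* called.

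The genes on either side of these 3 members were then listed, a choice made after their values were seen. *Ndufc2* lies at chr7:97400003-97407800 on the plus strand (GRCm38), and its exons overlap no other gene of the tables. The next gene, *Thrsp*, which codes for a nuclear protein tied to fatty acid synthesis, had 8072, 95644 and 13017 counts, 10.4-fold higher under the eKO label than under control (log2 3.38, 3.35 to 3.41). The gene after it, *Kctd14*, had 1048, 9240 and 1465 counts, 7.75-fold higher (log2 2.95, 2.86 to 3.05). On the other side *Alg8* had 678, 633 and 494 counts (log2 -0.29) and *Kctd21* 284, 386 and 142 (log2 0.26), while *Usp35*, farther out, had 173, 429 and 160 (log2 1.12, 0.87 to 1.39). *Ints4*, beyond *Kctd14*, had 1166, 1561 and 908 (log2 0.23). *Ndufc2*, *Thrsp* and *Kctd14* thus shared one order of libraries, with that labelled eKO highest and that labelled control lowest. In treated eKO against eKO, genes on both sides were called lower, as *Ndufc2* was, where 7.77% of all genes were. They were *Thrsp* (log2 -2.74), *Kctd14* (log2 -2.52), *Kctd21* (log2 -1.30) and *Usp35* (log2 -1.28). *Alg8* (log2 -0.22) and *Ints4* (log2 -0.64) were not called.

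*Uqcrc1* lies at chr9:108936648-108949641 on the plus strand. Its upstream neighbours shared its order of libraries, with that labelled eKO lowest and that labelled treated eKO highest, and differed by larger ratios. *Slc26a6*, an anion exchanger, had 1202, 100 and 4115 counts, 45.4-fold higher under the treated eKO label than under eKO (log2 5.5, 5.22 to 5.81). *Celsr3*, an adhesion receptor, had 133, 10 and 174 counts (log2 4.26, 3.35 to 5.35), and *Tmem89* had 1, 0 and 11. Downstream, *Col7a1* had 239, 330 and 341 counts (log2 0.19) and *Ucn2* had 8, 25 and 4. *Mir711* was at 0. *Atp5g1* lies at chr11:96072793-96075694 on the minus strand. On one side *Ube2z* had 3600, 2472 and 3366 counts (log2 0.59) and *Snf8* 1087, 961 and 1137 (log2 0.38), neither called in treated eKO against eKO, and *Gip* was at 0. On the other side the nearest pair of genes was called, in opposite directions. *Ttll6* had 36, 0 and 105 counts, called higher in treated eKO, and *Calcoco2* had 0, 32 and 0, called lower. Both calls rest on few luminal counts. In blastocysts *Ttll6* had 311, 276 and 423 counts and *Calcoco2* 57984, 58618 and 79381. *Hoxb13* had 0, 2 and 0. Whether neighbouring genes share a cause was not tested.

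**Figure D3:**
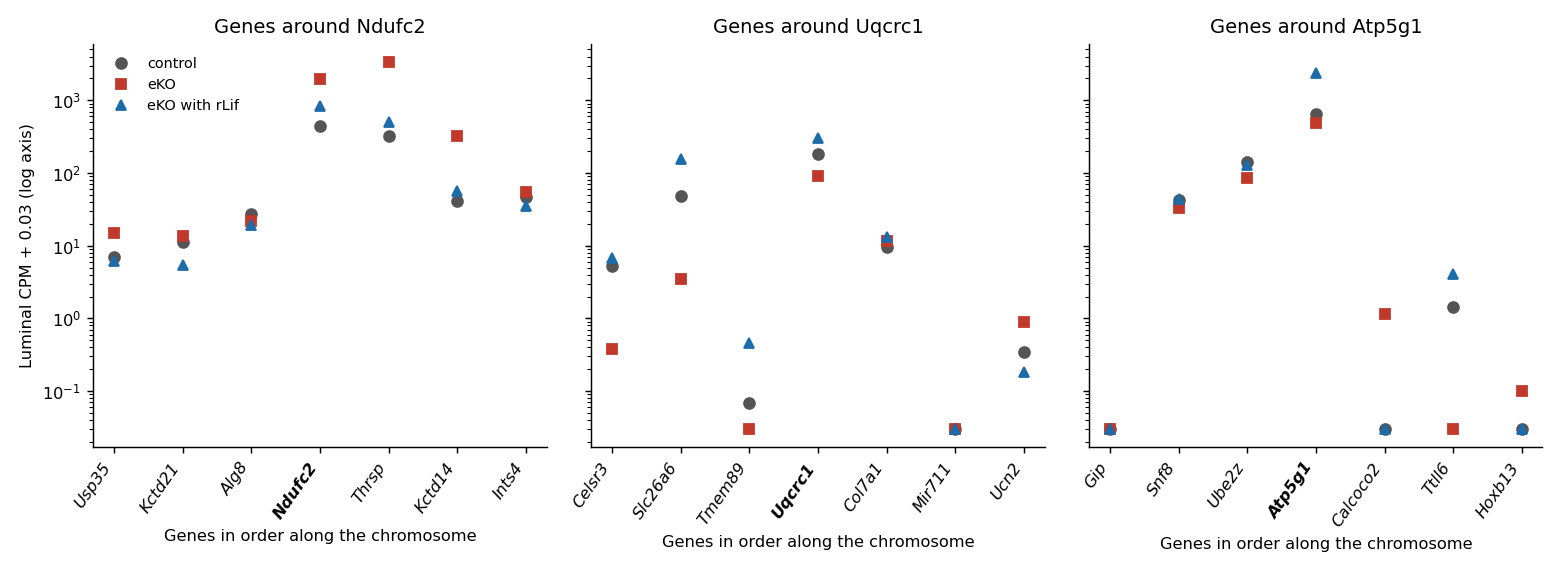
Luminal CPM plus 0.03 (log axis) of *Ndufc2*, *Uqcrc1* and *Atp5g1* and the 3 genes on each side, in order along the chromosome, with 1 marker per library as labelled (eKO with rLif is treated eKO). Points at the bottom are genes with 0 counts. *Thrsp* and *Kctd14* stand apart in the library labelled eKO together with *Ndufc2*, *Slc26a6* and *Celsr3* are low there together with *Uqcrc1*, and *Atp5g1* stands apart under the treated label while *Ube2z* and *Snf8* do not.

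In blastocysts the subunits stayed near the ratio of all genes. Of 77 members analysed, 0 were called beyond 2-fold in eKO against control, where 3.15% of all 14873 genes were, in treated eKO against control (4.94% of all genes) or in treated eKO against eKO (3.75% of all genes). Beyond log2 0.5 the members called were also 0, against 7.36%, 11.1% and 10.3% of all genes. The median log2 ratios were -0.01, -0.01 and 0.03. Members took 1.43%, 1.41% and 1.398% of all counts in the 3 libraries.

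The genes that differed most between luminal libraries were not called in blastocysts. *Ndufc2* had 1473, 1407 and 1323 counts, *Atp5g1* had 5053, 4856 and 5553, and *Uqcrc1* had 6127, 6258 and 6598. In eKO against control the extremes by complex were *Ndufb5* (0.22) and *Ndufs8* (-0.29), *Sdhd* (0.14) and *Sdhb* (-0.04), *Uqcrq* (0.01) and *Uqcr11* (-0.15), *Cox7a2l* (0.22) and *Cox6b2* (-0.77), and *Atp5l* (0.31) and *Atp5g3* (-0.12). *Cox6b2*, a testis-type isoform, had only 45, 27 and 32 counts, and its interval ran from -1.52 to -0.05. In treated eKO against control they were *Ndufs3* (0.18) and *Ndufa1* (-0.44), *Sdhb* (0.10) and *Sdha* (-0.09), *Uqcrc2* (0.09) and *Uqcrb* (-0.28), *Cox7a2l* (0.36) and *Cox6b2* (-0.52), and *Atp5s* (0.52) and *Atp5j2* (-0.17). In treated eKO against eKO, *Ndufs8* (0.44) and *Atp5s* (0.26) were highest in their complexes, and *Ndufb5* (-0.30) and *Cox8a* (-0.20) were lowest. *Sdhb* and *Sdhd* stood at 0.14 and -0.15, *Uqcrfs1* and *Uqcrb* at 0.14 and -0.15, *Cox6b2* at 0.25 and *Atp5j2* at -0.18. *Cycs* had 1898, 2059 and 1766 counts.

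Glycolysis, the other route to ATP, held called genes in blastocysts. Of 14 glycolytic genes analysed, 3 were called lower in eKO against control and 4 in treated eKO against control, with medians of -0.44 and -0.48, where 1.86% and 3.99% of all genes were called lower. *Ldha*, which makes lactate, had 7174, 1888 and 567 counts (log2 -1.96 and -3.69 against control). *Slc2a1*, the glucose transporter GLUT1, had 6133, 2286 and 1648 counts (log2 -1.46 and -1.92), and *Pfkp*, a phosphofructokinase, had 340, 123 and 55 (log2 -1.5 and -2.66). *Pfkl* was called in treated eKO against control only (2584, 1922 and 1080 counts, log2 -1.29), and the difference between the comparisons was not tested. Of 8 carriers and porins *Slc25a31*, a nucleotide carrier of germ cells, was called lower in eKO, on 44, 6 and 13 counts (log2 -2.91). The citric acid cycle list (18 genes) had 0 calls in either comparison, with medians of 0.00 and 0.06. Markers of maternal cells also moved between these libraries. Of 7 stromal markers analysed 2 were called lower in eKO (median -1.06) and 4 in treated eKO (median -1.71), although the sum of all 8, which includes *Pdgfra*, was 151 to 159 CPM. Of 3 red blood cell markers only 1 was detected, at 43.6, 35.7 and 18.7 CPM, while the globin genes *Hba-a1* and *Hba-a2* were at 0. The 5 immune markers summed to 61.5, 120 and 21.2 CPM. The 5 endothelial markers, of which 4 were detected, summed to 85.7, 96.1 and 139 CPM, but single genes went both ways. Of the 4 analysed, 2 were higher and 2 lower than control in eKO (median -0.30, 1 called lower). In treated eKO against control 2 were also higher and 2 lower (median -0.54, 1 called higher and 1 lower). Their part in these values was not tested.

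Related gene lists were counted in the same way in the luminal layer. In the library labelled eKO over control, 8.08% of all genes were called higher and 9.15% lower. Of 39 assembly factors analysed, 3 were called higher, a share near that of all genes, and 0 lower, with a median of 0.25. The 3 were *Cox17* (2043, 5114 and 3856 counts, log2 1.14), a copper chaperone, *Cox20* (log2 1.14) and *Coa3* (log2 1.05). Among 9 chain genes outside the symbol rule, *Atpif1*, the ATP synthase inhibitor (9053, 21122 and 20095 counts, log2 1.04), and *Usmg5* (27, 104 and 79, log2 1.76) were called higher, with a list median of 0.60. Of 17 genes analysed on the list of transcriptional regulators, 0 were called higher and 4 lower, with a median of -0.40. The list also holds *Peo1* and *Polg2*, which serve the copying of mitochondrial DNA rather than transcription. *Ppargc1a*, a coactivator known to drive mitochondrial gene expression, had 353, 106 and 165 counts (log2 -1.92). *Ppargc1b*, its relative, had 33, 7 and 23 (log2 -2.42), *Peo1*, the mitochondrial DNA helicase, 663, 306 and 286 (log2 -1.30), and *Polg2* 800, 376 and 850 (log2 -1.28). The genes of this list are long, with a median of 3762 bases. Other genes of over 3000 and up to 5000 bases had a median log2 ratio of -0.08. Centred in the 8 length classes, the list had a median of -0.43.

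Of 18 citric acid cycle genes, *Idh2* (3336, 1102 and 1763 counts, log2 -1.78) was called lower and none higher, with a median of -0.19. In glycolysis *Hk2* (475, 2815 and 1024 counts, log2 2.38) was called higher and *Slc2a1* (2116, 703 and 587, log2 -1.78) lower. Of the 15 glycolytic genes 3 had a ratio above 0 and 12 below, with a median of -0.28. Of 8 carriers and porins 0 were called, with a median of -0.23. The mitochondrial ribosome (76 genes) had 1 gene called higher and a median of 0.16, and the cytosolic ribosome (75 genes analysed, median length 703 bases) had 1 and a median of 0.11. In the library labelled treated eKO over control these 2 ribosome lists had medians of 0.40 and 0.37, with 0 and 7 genes called higher, where 4.12% of all genes were. Treated eKO over control also had *Ndufaf4* (log2 1.11), *Atpif1* (log2 1.11) and *Gapdh*, a glycolytic gene (478, 309 and 1476 counts, log2 1.58), called higher. Sequence shared with other genes was not counted for *Gapdh*, and the multi-mapping setting is not given, so its count is uncertain. *Peo1* (log2 -1.26) and *Slc2a1* (log2 -1.89) were called lower. Over eKO, where 7.88% of all genes were called higher and 7.77% lower, the library labelled treated eKO had 4 of 76 mitochondrial ribosome genes called higher. They were *Mrpl21* (1559, 850 and 2603 counts, log2 1.76), *Mrps27* (1188, 755 and 2291, log2 1.74), *Mrps18b* (log2 1.11) and *Mrps6* (log2 1.04), named after their values were seen. It also had *Gapdh* (log2 2.40) and *Polg2* (log2 1.32) called higher, *Hk2* (log2 -1.32) and *Tfb1m* (log2 -1.23) called lower, and 2 assembly factors called higher, *Bcs1l* (647, 420 and 1028 counts, log2 1.43), which inserts the Rieske protein into complex III, and *Ndufaf6* (200, 183 and 403, log2 1.28).

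Isoform choice was compared within each library, per base of exon length. Subunit c is encoded by *Atp5g1*, *Atp5g2* and *Atp5g3*, whose mature proteins are the same. *Atp5g1* took 49.1% of the set in the library labelled control, 45.5% in that labelled eKO and 75.03% in that labelled treated eKO, while *Atp5g2* took 3.49% to 8.76%. In blastocysts *Atp5g3* took most, 76.4%, 75.8% and 73.0%, and *Atp5g1* took 18.9%, 19.1% and 21.3%. *Atp5g3* itself had 11674, 10885 and 13872 luminal counts, and *Atp5g2* had 1633, 1985 and 2145. Of these 3 genes, *Atp5g1* alone was called between luminal libraries.

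**Figure D4:**
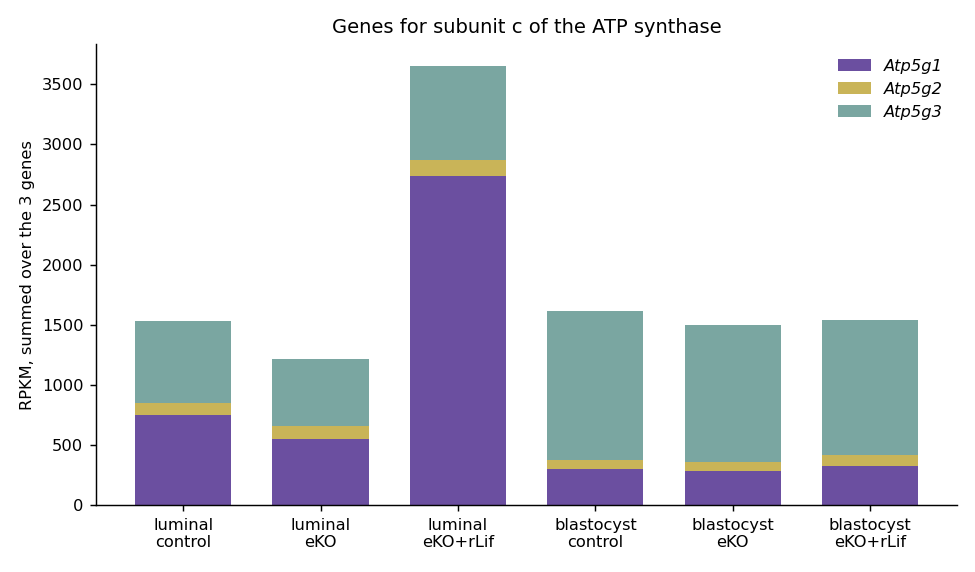
Levels of the 3 subunit c genes in RPKM (reads per kilobase of exon, scaled to library size), stacked by gene, in the 6 libraries. *Atp5g1* makes up most of the bar in the luminal library labelled eKO with rLif (treated eKO, 75.03%), and *Atp5g3* most of it in the 3 blastocyst libraries (73.0% to 76.4%).

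Complex IV used general isoforms throughout. *Cox4i2* took 0.32% to 0.507% of its pair with *Cox4i1* in luminal libraries and at most 0.0728% in blastocysts. *Cox6a2* took at most 0.144% of its pair with *Cox6a1*. *Cox6b2* took 0.142% to 0.301% of its pair with *Cox6b1* in luminal libraries and 0.975% to 1.46% in blastocysts. *Cox7b2* took at most 0.22% beside *Cox7b*, and *Cox8b* at most 0.111% beside *Cox8a* and *Cox8c*. Counts were 0 for *Cox8c* in the luminal layer and for *Cox8b* in blastocysts, which allows up to 3 counts in a library. In the *Cox7a* set, *Cox7a2l* took 65.2%, 72.9% and 62.7% in luminal libraries and 41.6%, 44.95% and 47.8% in blastocysts. *Cox7a2* took nearly all the rest, and *Cox7a1*, the heart and muscle isoform, 0.09% to 0.64%.

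Levels per length differed between complexes and tissues. In the luminal layer the highest were *Cox8a* (mean 1984 RPKM of the 3 libraries), *Ndufc2* (1594) and *Atp5g1* (1350), and the lowest of those analysed were *Cox7b2* (0.24), *Cox8b* (0.86) and *Cox6a2* (1.0). In blastocysts the highest were *Atp5b* (1331), *Atp5g3* (1165) and *Cox8a* (764), and the lowest were *Cox7a1* (1.36), *Atp5k* (2.65) and *Cox6b2* (2.97). The *Ndufc2* and *Atp5g1* ranks rest on 1 library each: *Ndufc2* had 655, 2918 and 1208 RPKM, and *Atp5g1* had 754, 554 and 2740. Complex III had the highest median of the luminal layer, 954 RPKM, and complex IV the highest in blastocysts, 220 RPKM over 12 general subunits. Over the 75 members that are not restricted isoforms the levels of the 2 tissues had a Spearman correlation of 0.66, across genes.

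Most members took a larger part of the luminal libraries than of the blastocyst libraries. A gene was called here when the 3 values of one tissue all lay above the 3 of the other and the means differed beyond 2-fold. Of 81 members, 52 were higher in the luminal layer (31.7% of all 16911 genes were) and 4 in blastocysts (29.3% of all genes). The median log2 ratio was 1.73, beside 0.15 for all genes. The 3 libraries of a tissue carried different treatments and are not replicates.

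The largest luminal excess by ratio was that of *Cox4i2*, an isoform tied to hypoxia and lung, at 2.995 to 3.73 CPM against 0.05 to 0.35, on only 9 counts in blastocysts. *Ndufc2* followed at 16.4-fold, with 468, 2087 and 855 CPM in the luminal libraries and 64.7 to 73.2 in blastocysts. *Ndufa1* was 16.1-fold higher (133, 207 and 197 CPM against 9.53 to 12.9), *Ndufa2* 11.9-fold and *Ndufa11* 9.05-fold. The 4 genes higher in blastocysts were *Atp5a1* (3.46-fold), *Ndufs1* (3.07-fold), *Sdha* (2.73-fold) and *Atp5b* (2.63-fold), large subunits of the catalytic parts of their complexes. *Atp5b* had 686 to 1123 CPM in the luminal layer and 2283 to 2495 in blastocysts, with no overlap. The next lowest ratio, that of *Ndufv1*, was not called (log2 -0.96). *Cox8b*, with 24 luminal counts and 0 in blastocysts, gives no fold.

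This contrast also differed by exon length among other genes. Those of at most 500 bases had a median log2 ratio of 0.76 between the tissues, those of over 500 and up to 750 bases 1.81, and those of over 3000 and up to 5000 bases -0.53. Members of at most 750 bases had a median of 1.96 (46 genes), those of over 750 and up to 1000 bases 1.71 (9 genes), and those over 1500 bases -0.31 (13 genes). Of these 13, 8 had at most 2000 bases and 4 had over 2000 and up to 3000, so their median lay below those of other genes of like length. Tissue, dissection method and input cannot be told apart in this comparison.

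**Figure D5:**
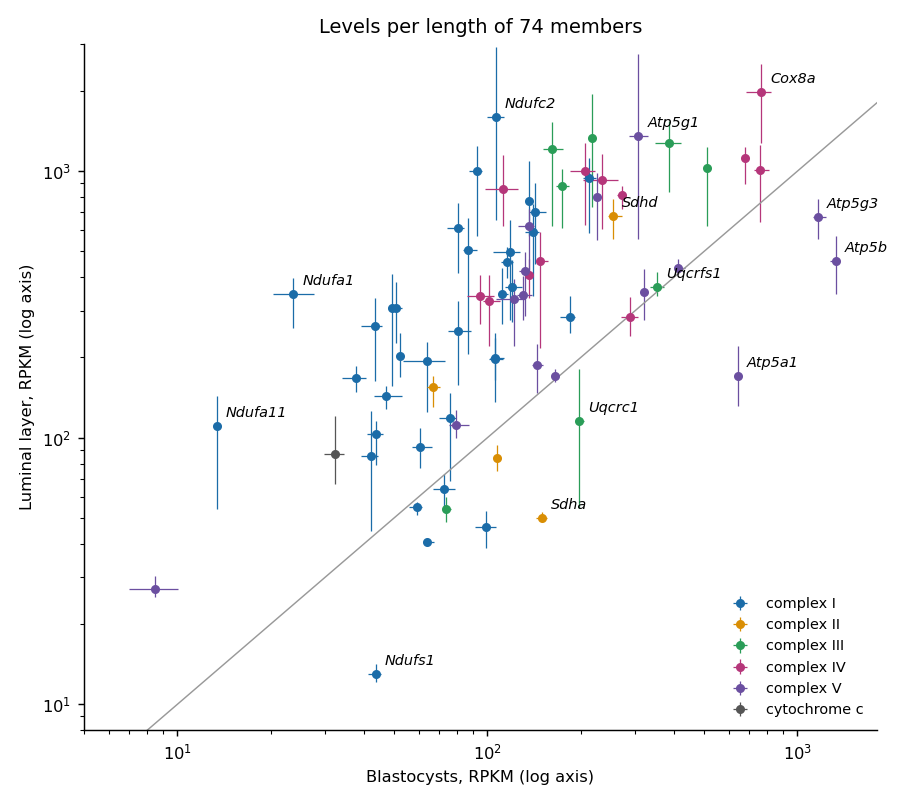
Mean RPKM in the luminal layer against mean RPKM in blastocysts (both log axes) for 74 members with at least 300 luminal counts, with lines from the lowest to the highest of the 3 libraries of each tissue and the diagonal of equal levels. *Ndufa1*, *Ndufa11* and *Ndufc2* lie far above the diagonal, and *Atp5b*, *Atp5a1*, *Sdha* and *Ndufs1* lie below it.

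Some members could not be measured well. *Ndufs5* had 0 counts in all 6 libraries, and its exons in the tables overlap those of *BC002163*, which had 324, 561 and 599 luminal counts. In GENCODE M21 transcripts 21.7% of the 50-base words of *Ndufs5* also occur in *BC002163*. *Atp5k* had 10 to 48 counts per library. Of the 83 members, 9 had exons overlapping another gene, and 1, *Atp5l*, shared over 50% of its words (84.8%) with transcripts of other genes. *Ndufc2*, *Uqcrc1*, *Ndufa3* and *Ndufv3* shared 0%, and *Atp5g1* shared 11.1%.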

How the data were processed

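RNA from 6 pooled libraries, 3 of the luminal layer and 3 of blastocysts, was read by SMART-seq v4. Per the labels, the submitters' processing notes name HISAT2, featureCounts (Subread 2.0.0) and GRCm38/mm10. The authors deposited whole-number counts of reads for each gene, not normalized, although the study's methods speak of RPKM. Strand and multi-mapping settings and the annotation release are not given in the sources used here. Groups came from the labels, with 1 library each.

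Genes with at least 10 counts over the 3 libraries of a tissue were kept (15694 luminal, 14873 blastocyst). TMM scaling (R 4.3.3 with edgeR 4.0.16) was done in each tissue and, for the tissue contrast, over all 6. CPM and RPKM used these sizes and the deposited exon lengths. Ratios of 2 libraries carry exact 95% Clopper-Pearson intervals (scipy 1.17.1), which cover counting error only. The script was tested on simulated data. The 83 members, the gene lists and the rule for named genes were chosen with earlier results of these data known. The rule names every called member, the extremes by complex (at least 100 counts) and by level, isoform sets, and core subunits, of which 1 is not reported here. Neighbouring genes, *Coa3*, *Polg2*, *Peo1*, *Pfkl* and some subunits beyond log2 0.5 or with further counts fall outside it and were named after their values were seen. Alternatives were DESeq2 1.42.0 size factors, total counts, other count minimums and limits, omission of overlapping genes, and centring by length class. Sequences came from RefSeq (GRCm38.p6). Promoters of 16 members were not used here.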

Additional observations from a re-analysis of the deposited data

How the results depend on the processing

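No paired analysis was possible because each group was 1 library and the labels carry no replicate numbers, and no replicate could be left out. Counts of called members moved most with the limit. In the luminal layer, eKO against control gave 10 members beyond 2-fold, 40 beyond log2 0.5 and 75 with an interval clear of 0. For treated eKO against control the numbers were 9, 40 and 69, and for treated eKO against eKO 4, 10 and 65. In blastocysts, where 0 were called, 37, 44 and 42 intervals were clear of 0 in eKO against control, treated eKO against control and treated eKO against eKO. Centring in 8 classes of exon length, added after seeing the data, left 5 and 2 called members in the first 2 luminal comparisons and medians of 0.15 and 0.13. Centring in 3 classes left 9 and 7 called, with medians of 0.41 and 0.40. In blastocysts it moved the median to 0.0399 in eKO against control and -0.0360 in treated eKO against eKO, and 3 classes gave 0.0402 and -0.0361. The called members other than *Cox8b* (21 values over the 3 luminal comparisons) kept their direction under DESeq2 size factors, total counts and 8-class centring. *Cox8b* and the genes of the other lists were not refitted. Total counts took *Ndufa2* and *Ndufb7* across the 2-fold limit in treated eKO against control. In the tissue contrast, control libraries alone gave 50 called members and a median of 1.21, against 56 and 1.73. By raw counts *Atp5g1* took 55.4%, 51.8% and 79.5% of its set in the luminal libraries labelled control, eKO and treated eKO, and 23.0%, 23.3% and 25.8% in blastocysts. Depth limits the restricted isoforms most, several of which had fewer than 50 counts per library. Spread between animals could not be estimated at any depth.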
